A study of Mus musculus with 6 samples.

Results

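The genes of glycogen metabolism were examined in CGR8 mouse embryonic stem cells after reduction of Rsl24d1, whose product acts in building the large subunit of the ribosome. The members are 9 genes picked by symbol for their role in making, breaking down or regulating glycogen (Pygl, Pygb, Pygm, Gys1, Gbe1, Gyg, Ugp2, Ppp1r3c and Phkb), out of 22332 symbols in the deposited table of estimated counts. Both groups were grown on gelatin with 10% fetal bovine serum and LIF and were transfected: 3 libraries received a pool of siRNAs against Rsl24d1 (siRSL24D1) and 3 received a pool of non-targeting siRNAs (siCtrl), and all were collected after 48 hours. Untransfected cells were not analysed here, and the labels do not say whether the 3 libraries of a group came from separate cultures. The p-values therefore set group differences against the spread between libraries, and may not hold for new cultures.

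Glycogen is a branched polymer of glucose that cells hold as a store of fuel. Glycogenin starts a chain on itself, glycogen synthase extends it with glucose taken from UDP-glucose, and the branching enzyme adds branches. Glycogen phosphorylase, which mammals have as liver, brain and muscle isozymes, takes glucose off the chain ends as glucose 1-phosphate, and phosphoglucomutase links this to glucose 6-phosphate. Phosphorylase kinase switches phosphorylase on, while protein phosphatase 1, brought to the glycogen particle by targeting subunits, switches phosphorylase off and synthase on.

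Glycogen genes were lower in siRSL24D1 cells. Of the 9 members, 7 fell and 0 rose, at a median log2 fold change of -0.38, beside 20.0% of all 15084 tested genes that fell, 21.2% that rose and a median over all tested genes of 0.015 (edgeR quasi-likelihood test, adjusted p under 0.05 over all genes tested). The members were chosen with earlier results of these data known, so the count describes the list and does not test it. No member was higher at an unadjusted p under 0.05 either, and the DESeq2 Wald test and limma-voom each called 0 members higher. The largest falls were those of Ppp1r3c, a targeting subunit of protein phosphatase 1, at -1.83, and of Pygl, the liver glycogen phosphorylase, at -1.81. The synthetic enzymes Gys1, Gbe1 and Gyg fell by 0.38, 0.36 and 0.29 on the log2 scale, and Ugp2 and Phkb did not pass the test. In whole cultures, fewer cells that express a gene and less of its RNA per cell cannot be told apart. Levels are relative to the bulk of genes in a library, so a change in the total RNA of a cell would not be seen.

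Library totals ran from 30943635 to 35214000 estimated counts. The targeted gene followed its label: Rsl24d1 was at 53.8, 55.6 and 52.1 CPM in the siRSL24D1 libraries, against 99.4, 102.7 and 97.9 CPM in the siCtrl libraries, and its log2 fold change was -0.89 ± 0.044 (SE). CPM here and below are counts scaled to one common library total after TMM, which equalizes libraries on the bulk of genes. The stem cell markers fixed for the line were present, with Pou5f1, Sox2, Nanog, Zfp42, Esrrb and Tdgf1 summing to 1747 to 1818 CPM in siRSL24D1 and 1913 to 2094 CPM in siCtrl. Of these 6 genes Nanog, Esrrb and Tdgf1 fell and Zfp42 rose, beside 20.0% of all tested genes that fell and 21.2% that rose.

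**Figure D1:**
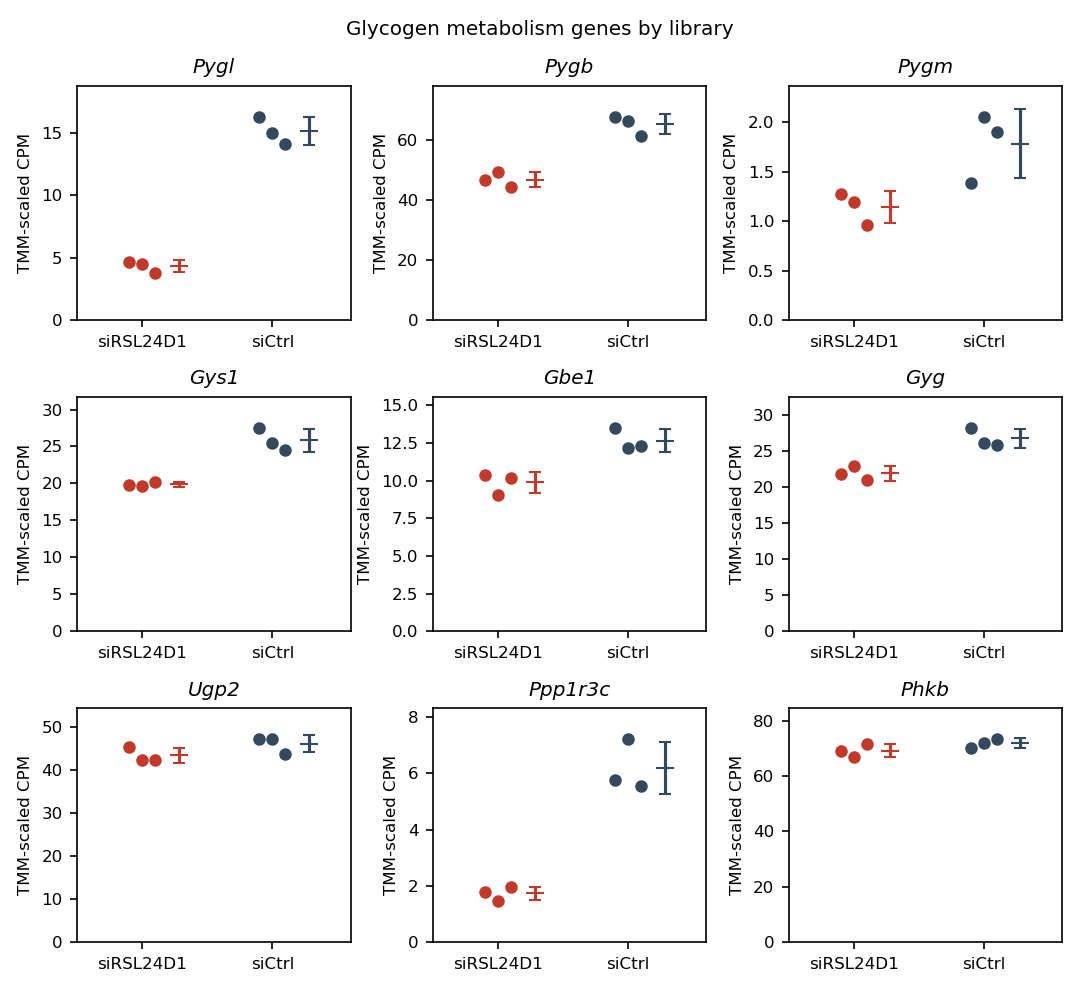
Level of each of the 9 members in every library, in TMM-scaled CPM on axes that start at 0; each point is a library and the bar beside the points is the mean ± SD (n = 3 per group). The siRSL24D1 points of Pygl lie between 3.79 and 4.68 CPM and those of siCtrl between 14.1 and 16.3 CPM, while the groups overlap for Ugp2 and Phkb.

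Among the breakdown enzymes, Pygl (chr12:70190811-70231488, minus strand, GRCm38) was at 4.68, 4.503 and 3.79 CPM in the siRSL24D1 libraries, against 16.3, 14.996 and 14.1 CPM in the siCtrl libraries. The highest siRSL24D1 library was thus well under the lowest siCtrl library. The mean was 4.33 ± 0.47 CPM in siRSL24D1 and 15.1 ± 1.11 CPM in siCtrl (SD, n = 3 each), a level at 0.286 of siCtrl with a 95% interval from 0.243 to 0.336 (edgeR adjusted p = 2.3e-05). Among all tested genes, 0.166% had a log2 fold change as low as that of Pygl.

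Pygb, the brain isozyme (chr2:150786735-150831758, plus strand), carried most of the phosphorylase transcripts of these cells. It was at 46.5, 49.3 and 44.5 CPM in the siRSL24D1 libraries, against 67.8, 66.3 and 61.4 CPM in the siCtrl libraries. The groups did not overlap, and the log2 fold change was -0.48 ± 0.057 (SE, edgeR adjusted p = 0.00044).

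Pygm, the muscle isozyme (chr19:6384399-6398459, plus strand), was scarce, with 114 counts over the siRSL24D1 libraries and 178 over the siCtrl libraries. It was at 1.27, 1.20 and 0.96 CPM in the siRSL24D1 libraries, against 1.39, 2.06 and 1.91 CPM in the siCtrl libraries. The groups came close to each other but did not overlap. Its log2 fold change was -0.64 ± 0.20 (SE, edgeR adjusted p = 0.035). This call depended on the test and on the libraries. It was lost under the DESeq2 Wald test (adjusted p = 0.0697), and it was lost without any 1 library except siCtrl replicate 1, with adjusted p-values over the 6 left-out fits from 0.0185 to 0.117.

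Compared per kilobase of exon, with all annotated exons of a gene joined, the isozymes were present in unequal and shifted proportions. Pygl made up 6.32%, 5.79% and 5.44% of phosphorylase transcripts in the siRSL24D1 libraries, against 14.0%, 13.1% and 13.3% in the siCtrl libraries. Pygb made up 90.8 ± 0.80% in siRSL24D1 and 83.1 ± 0.29% in siCtrl, and Pygm 3.31 ± 0.36% in siRSL24D1 and 3.42 ± 0.74% in siCtrl (SD, n = 3 each). The groups were apart for Pygl and Pygb and overlapped for Pygm, with two-sided exact permutation p-values of 0.1 for Pygl, 0.1 for Pygb and 0.8 for Pygm, where 0.1 is the smallest that 3 against 3 libraries can give. The shares rest on the length used. Per kilobase of the longest annotated transcript, Pygl made up 9.31% to 10.7% in siRSL24D1 and 21.2% to 22.5% in siCtrl, a difference of -11.8 percentage points, against -7.61 with all exons joined. The sum of the isozymes with all exons joined was 10.7 ± 0.59 CPM per kb in siRSL24D1 and 16.3 ± 0.78 CPM per kb in siCtrl.

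The change of Pygl was set directly against that of Pygb within each library, where scaling between libraries drops out. The log2 ratio of Pygl to Pygb per kilobase was -3.83, -3.97 and -4.07 in the siRSL24D1 libraries, against -2.58, -2.66 and -2.64 in the siCtrl libraries. The difference between the groups, which does not depend on the lengths, was -1.33 on the log2 scale, and the groups did not overlap (exact permutation p = 0.1, the smallest possible).

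**Figure D2:**
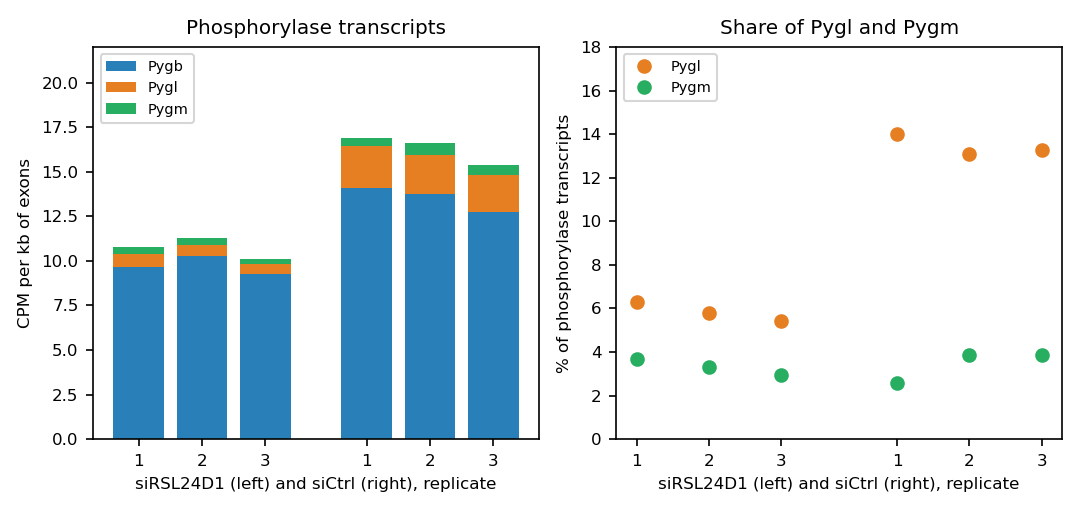
Left, CPM per kb of exon of the 3 phosphorylase isozymes stacked for each library; right, the percentage of phosphorylase transcripts that were Pygl or Pygm in each library. The stacks reach 10.1 to 11.3 CPM per kb in siRSL24D1 and 15.4 to 16.9 in siCtrl, and the Pygl share lies at 5.44% to 6.32% in siRSL24D1 and 13.1% to 14.0% in siCtrl.

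Of the regulators of this step, Ppp1r3c (chr19:36731731-36736653, minus strand), which brings protein phosphatase 1 to glycogen and is also called PTG, was at 1.78, 1.48 and 1.96 CPM in the siRSL24D1 libraries, against 5.75, 7.22 and 5.54 CPM in the siCtrl libraries. Every siRSL24D1 library was below every siCtrl library. Its level was 0.282 of siCtrl with a 95% interval from 0.22 to 0.362 (log2 fold change -1.83 ± 0.16 SE, edgeR adjusted p = 1.0e-04). Among all tested genes, 0.146% were as low.

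Phkb (chr8:85840959-86061376, plus strand), the beta subunit of phosphorylase kinase, was the member with the smallest difference. It was at 69.0, 66.8 and 71.5 CPM in the siRSL24D1 libraries, against 70.0, 72.0 and 73.5 CPM in the siCtrl libraries, and the groups overlapped. Its log2 fold change was -0.056, with a 95% interval from -0.16 to 0.046 (edgeR adjusted p = 0.344). With counts corrected for transcript length it was at -0.12 and passed (adjusted p = 0.0487).

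On the synthetic side, Gys1, the glycogen synthase of tissues other than liver (chr7:45434844-45456619, plus strand), was at 19.8, 19.6 and 20.2 CPM in the siRSL24D1 libraries, against 27.6, 25.5 and 24.5 CPM in the siCtrl libraries. The siRSL24D1 libraries lay close to each other and below all siCtrl libraries (log2 fold change -0.38 ± 0.059 SE, edgeR adjusted p = 0.0016). Exons of Gys1 share 310 bases with Ruvbl2 on the other strand, and the strand setting of the counting is not given in the sources used here.

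Gbe1, the branching enzyme (chr16:70313949-70569716, plus strand), was at 10.4, 9.06 and 10.2 CPM in the siRSL24D1 libraries, against 13.5, 12.2 and 12.3 CPM in the siCtrl libraries (log2 fold change -0.36 ± 0.082 SE, edgeR adjusted p = 0.0092). Gyg, glycogenin, the primer on which a chain starts (chr3:20122084-20155317, minus strand), was at 21.8, 22.9 and 20.9 CPM in the siRSL24D1 libraries, against 28.2, 26.1 and 25.9 CPM in the siCtrl libraries (log2 fold change -0.29 ± 0.060 SE, edgeR adjusted p = 0.0062). For both genes every siRSL24D1 library was below every siCtrl library.

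Ugp2, which makes the UDP-glucose that synthase uses (chr11:21321138-21371201, minus strand), was at 45.5, 42.4 and 42.5 CPM in the siRSL24D1 libraries, against 47.4, 47.4 and 43.8 CPM in the siCtrl libraries. The ranges overlapped. Its log2 fold change was -0.087, with a 95% interval from -0.21 to 0.033 (edgeR adjusted p = 0.216), and it passed in 1 alternative, the replicate block with a GC correction, at -0.15 (adjusted p = 0.0476). Exons of Ugp2 share 78 bases with Gm12043 on the other strand.

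Groups that did not overlap in the direction of lower siRSL24D1 values were seen for 7 of 9 members, beside 26.2% of all tested genes. Per kilobase of all exons joined, Ugp2 was the highest member in both groups and Pygm the lowest. In siRSL24D1 the ranges of Pygb, Gyg and Phkb ran into each other at 8.93 to 10.3 CPM per kb, whereas in siCtrl these genes followed each other in that order with no overlap, at mean levels of 13.5, 11.4 and 9.68 CPM per kb. Gbe1, Ppp1r3c and Pygl shared one range in siCtrl, at means of 2.36, 2.26 and 2.19 CPM per kb. In siRSL24D1, Gbe1 at 1.85 ± 0.13 CPM per kb was above Ppp1r3c at 0.639 ± 0.088 and Pygl at 0.627 ± 0.068 CPM per kb (SD, n = 3). This order was not the same per kilobase of the longest annotated transcript, a length tried after the data were seen. There Pygl was above Ppp1r3c in both groups, at 1.37 ± 0.15 against 0.639 ± 0.088 CPM per kb in siRSL24D1 and at 4.80 ± 0.35 against 2.26 ± 0.34 CPM per kb in siCtrl, and it was also above Gbe1 in siCtrl, at 3.39 ± 0.20 CPM per kb (SD, n = 3 each). On that scale Gyg and Phkb overlapped in siCtrl, as did Ugp2 and Pygb, while Ugp2 kept the highest mean and Pygm the lowest in both groups.

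**Figure D3:**
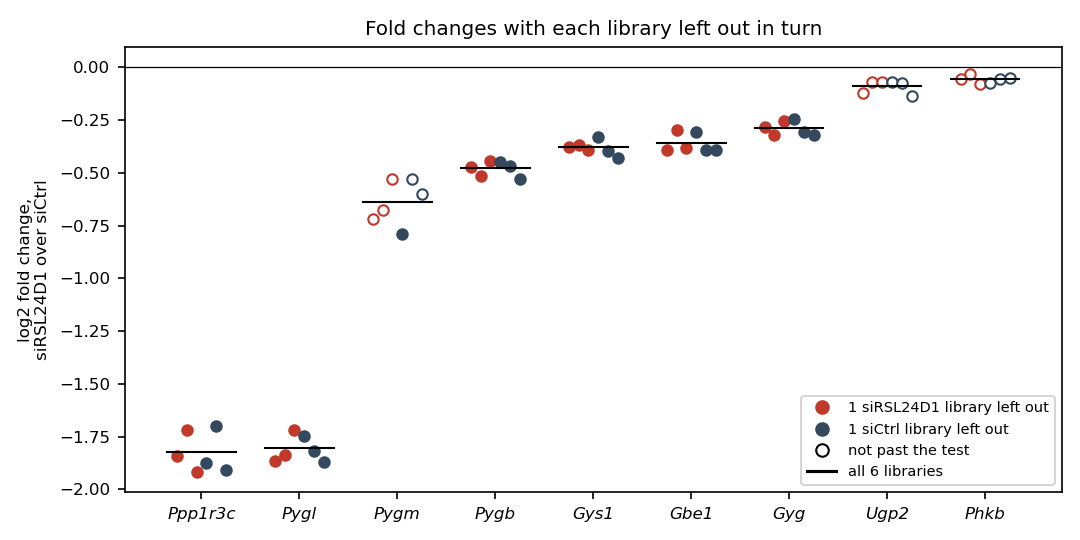
Log2 fold change of siRSL24D1 over siCtrl for each member when 1 library is left out, with the line at the value from all 6 libraries; open points did not pass the test. Ppp1r3c stays between -1.92 and -1.70 and Pygl between -1.87 and -1.72, whereas 5 of the 6 points of Pygm are open.

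The promoters of the members with the largest falls are shown with 1 short motif, ACGTG, which is a form of the core that hypoxia-inducible factors are known to bind and is also part of the E-box CACGTG. Other forms of that core were neither searched for nor marked, so the counts below hold for ACGTG alone. Sequences are RefSeq windows of GRCm38.p6 and of the reference strain, from 250 bases before to 50 bases after a start, matched for 9 of 9 members (10 windows, since Ugp2 has more than 1 start). Each line gives the coding-strand sequence 5′ to 3′, with the motif, or its reverse complement CACGT, in capitals. For Pygl and Ppp1r3c the 250 bases before the start are printed.
Pygl (chr12:70227684-70227933, minus strand): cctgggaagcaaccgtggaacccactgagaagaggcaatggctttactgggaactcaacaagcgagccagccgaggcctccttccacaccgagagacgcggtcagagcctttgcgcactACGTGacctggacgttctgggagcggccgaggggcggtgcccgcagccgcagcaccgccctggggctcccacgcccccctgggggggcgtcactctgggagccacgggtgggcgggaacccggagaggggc
Ppp1r3c (chr19:36736605-36736854, minus strand): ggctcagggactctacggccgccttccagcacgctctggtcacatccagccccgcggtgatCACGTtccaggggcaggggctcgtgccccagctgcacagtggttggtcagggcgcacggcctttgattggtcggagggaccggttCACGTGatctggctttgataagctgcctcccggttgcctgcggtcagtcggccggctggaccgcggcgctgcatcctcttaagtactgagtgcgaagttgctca
Shorter stretches around the match are printed for the other isozymes, whose falls were smaller, and for Ugp2, which did not pass the test.
Pygb (chr2:150786611-150786659, plus strand): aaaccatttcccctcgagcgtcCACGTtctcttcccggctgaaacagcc
Pygm (chr19:6384325-6384373, plus strand): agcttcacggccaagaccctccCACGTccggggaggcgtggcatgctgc
Ugp2 (chr11:21371410-21371458, minus strand): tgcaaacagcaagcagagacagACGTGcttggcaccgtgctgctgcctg

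In Pygl the match begins 131 bases before the RefSeq start, and in Ppp1r3c the matches begin 189 and 104 bases before it, the nearer one as a full CACGTG. GENCODE also annotates transcripts of Pygl that start upstream of this window. In all, 6 of 9 members held ACGTG on either strand of a window (Pygl, Pygb, Pygm, Gyg, Ppp1r3c and Ugp2), and Gys1, Gbe1 and Phkb did not, beside 21.8% of all 27025 genes with a window. The match of Gyg lies after the start, and not every window of Ugp2 held a match. Among the members with the letters Ugp2 did not pass the test. Among those without them in a window, Gys1 and Gbe1 fell and Phkb did not pass. CACGTG was in 2 of the 10 member windows, those of Ppp1r3c and of Gyg, the called member with the smallest fall, beside 7.15% of all windows. A match is a run of letters. Neither binding nor a part of the motif in the change of any member was tested.

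The rest of the pathway was read from a list of 32 other glycogen genes, also chosen with earlier results of these data known. Of 28 tested, 16 fell and 0 rose, at a median log2 fold change of -0.28, beside 20.0% of all tested genes that fell, 21.2% that rose and a median of 0.015 over all tested genes (edgeR, adjusted p under 0.05). At an unadjusted p under 0.05 the list had 17 lower genes and 1 higher, Ppp1r3d, and the DESeq2 Wald test and limma-voom each called 16 lower and 0 higher. The 4 genes with too few counts to test were Gys2, the liver synthase, and Ppp1r3a, the muscle targeting subunit, with Ppp1r3e and G6pc, the liver glucose 6-phosphatase. G6pc had 4 counts, all in siCtrl replicate 3.

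Genes listed for the supply and release of glucose 6-phosphate, glucose transporters among them, fell without exception among those tested, 7 of 7, beside 20.0% of all tested genes. Slc2a3, a glucose transporter, was at 1279, 1253 and 1146 CPM in the siRSL24D1 libraries, against 2508, 2499 and 2388 CPM in the siCtrl libraries, a log2 fold change of -1.01. The transporter Slc2a1 was at -0.52, the hexokinases Hk1 and Hk2 at -0.78 and -0.51, and Gpi1, which interconverts glucose 6-phosphate and fructose 6-phosphate, at -0.60. G6pc3, a glucose 6-phosphatase found in most tissues, was at -0.41 and Slc37a4, which carries glucose 6-phosphate into the endoplasmic reticulum, at -0.44. Adjusted p-values of these 7 genes were at most 0.00335 (edgeR).

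Pgm1, a phosphoglucomutase, had the largest fall of the list. It was at 36.6, 34.0 and 32.1 CPM in the siRSL24D1 libraries, against 83.9, 78.4 and 75.9 CPM in the siCtrl libraries (log2 fold change -1.21 ± 0.062 SE, edgeR adjusted p = 2.1e-05). Pgm2 was at -0.41 (adjusted p = 4.0e-04) and Pgm2l1 at 0.10 (adjusted p = 0.214). The mouse symbols Pgm1 and Pgm2 were exchanged at some point, since RefSeq lists each as a former symbol of the other gene, and the annotation release behind the table is not given in the sources used here. Which of these loci each row counts therefore rests on the symbol alone.

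Gaa, which degrades glycogen in lysosomes, was at 61.9, 60.1 and 56.6 CPM in the siRSL24D1 libraries, against 56.2, 54.3 and 56.2 CPM in the siCtrl libraries. The groups did not overlap, but its log2 fold change of 0.10, with a 95% interval from -0.0090 to 0.21, did not pass the test (edgeR adjusted p = 0.127).

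Among the other subunits of phosphorylase kinase, Phka1, the alpha subunit best known from muscle, fell by 0.39 on the log2 scale (edgeR adjusted p = 0.0025). Phka2, the alpha subunit best known from liver, was at -0.12 (adjusted p = 0.129) and passed in 1 alternative, the replicate block with a length correction, at -0.15 (adjusted p = 0.0466). Phkg1 was at 0.089 (adjusted p = 0.494) and Phkg2 at 0.086 (adjusted p = 0.343). The kinase genes other than Phkb thus held 1 lower gene of 4 tested, a share near the 20.0% of all tested genes that fell.

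Of the targeting subunits of protein phosphatase 1 other than Ppp1r3c, 2 of 4 tested fell, beside 20.0% of all tested genes, and 1 of these calls, that of Ppp1r3g, was close to the threshold. Ppp1r3b was at 13.9, 15.6 and 14.0 CPM in the siRSL24D1 libraries, against 20.4, 19.3 and 20.1 CPM in the siCtrl libraries (log2 fold change -0.46 ± 0.065 SE, edgeR adjusted p = 0.0010). Ppp1r3g, at 0.499 of its siCtrl level (adjusted p = 0.0489), had 59 counts over the siRSL24D1 libraries and 118 over the siCtrl libraries, its groups overlapped, and the call was lost under library totals (adjusted p = 0.052) and without siCtrl replicate 1 or 2 or siRSL24D1 replicate 1 or 3 (adjusted p = 0.0941 to 0.149). Ppp1r3f was at -0.38 (adjusted p = 0.0507) and passed in 4 alternatives, at -0.38 to -0.42. Ppp1r3d was at 0.49 (adjusted p = 0.0741).

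Per kilobase, Ppp1r3b was at 2.33 CPM in siRSL24D1 and 3.21 CPM in siCtrl, and Ppp1r3c at 0.639 CPM in siRSL24D1 and 2.26 CPM in siCtrl. The catalytic subunits, which serve many processes beside glycogen, differed little. Ppp1cc was at -0.16 (edgeR adjusted p = 0.0086), Ppp1cb at -0.11 (adjusted p = 0.034) and Ppp1ca at 0.018 (adjusted p = 0.792), whose sign turned under upper-quartile scaling. Ppp1cb lost its call under library totals (adjusted p = 0.0757) and without any 1 library except siCtrl replicate 3 (adjusted p = 0.0601 to 0.103).

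Among the regulators, Epm2a, which encodes laforin, a phosphatase that takes phosphate off glycogen, was at 2.64, 3.53 and 2.83 CPM in the siRSL24D1 libraries, against 5.84, 6.18 and 5.72 CPM in the siCtrl libraries. The groups were well apart, at a log2 fold change of -0.97 ± 0.13 (SE, edgeR adjusted p = 0.00063). Nhlrc1, which encodes malin, the partner of laforin, was at -0.029 (adjusted p = 0.926), Stbd1, which tethers glycogen to membranes, at 0.068 (adjusted p = 0.536), and Gsk3a, a kinase that inhibits synthase, at -0.046 (adjusted p = 0.571). Gsk3b, the related kinase, was at 67.8, 57.2 and 73.5 CPM in the siRSL24D1 libraries, against 48.4, 49.4 and 68.1 CPM in the siCtrl libraries, with siCtrl replicate 3 inside the range of the other group (log2 fold change 0.26, adjusted p = 0.175). Without siCtrl replicate 3 it was at 0.42 and passed (adjusted p = 0.00893).

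**Figure D4:**
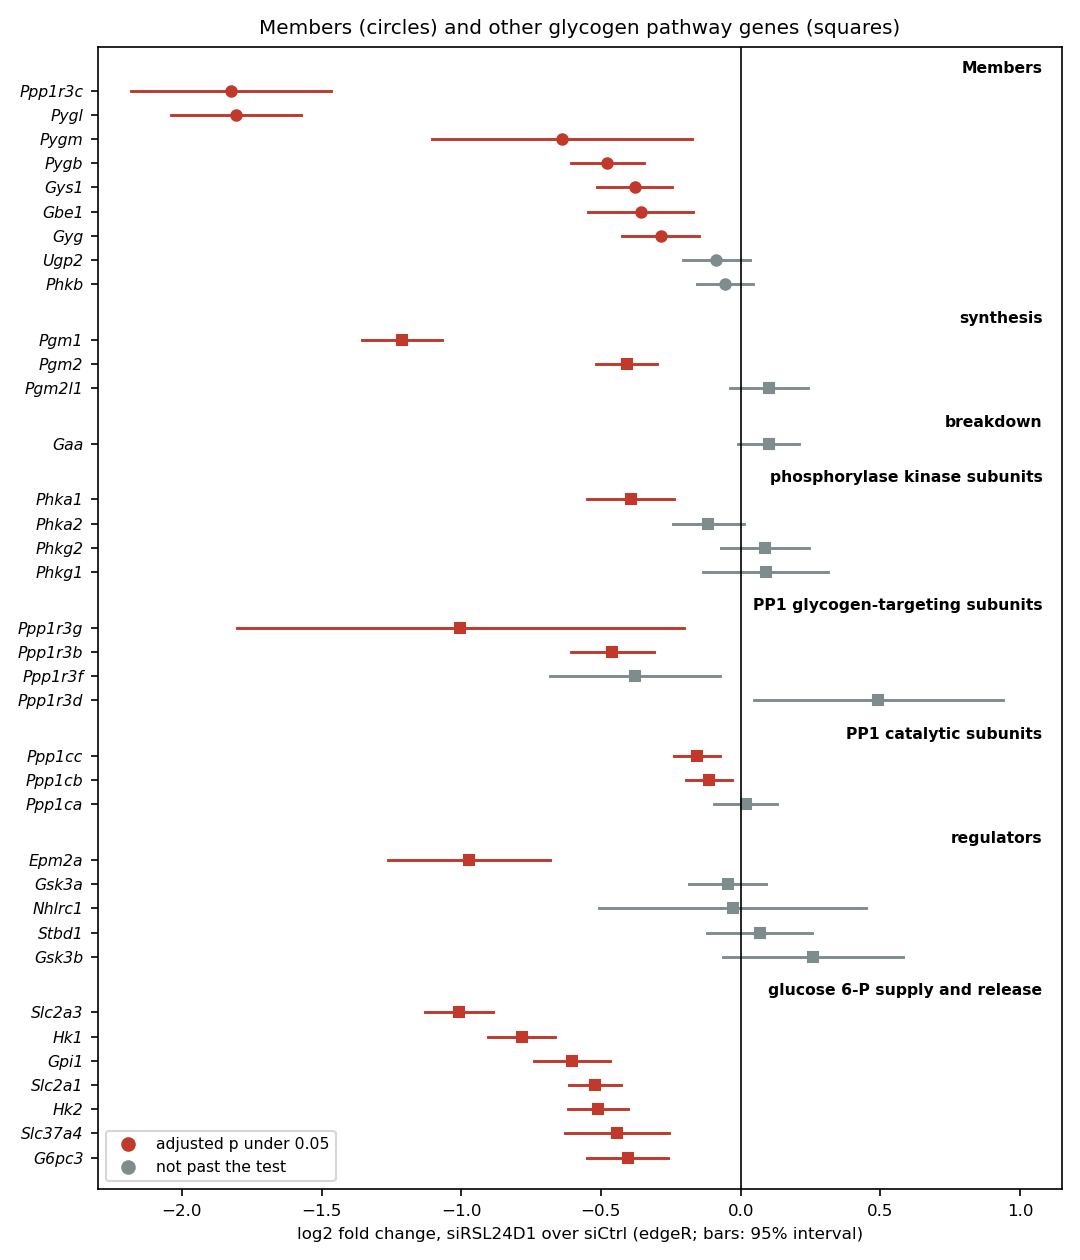
Log2 fold change of siRSL24D1 over siCtrl with its 95% interval, not adjusted for the number of genes, for the 9 members (circles) and 27 of the 28 tested genes of the pathway list (squares), grouped by role. All red points, the genes past the test, lie left of 0, from -1.83 for Ppp1r3c to -0.11 for Ppp1cb.

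Markers of cell types known for glycogen or for 1 of the isozymes were read beside these values. Their calls stand beside 20.0% of all tested genes that fell and 21.2% that rose. All 6 hepatocyte markers were under 1 CPM in every library and summed to 0.15 to 0.51 CPM in siRSL24D1 and 0.35 to 0.74 CPM in siCtrl. Of 5 trophoblast markers, Cdx2, a factor of trophoblast stem cells, and Gcm1 rose, whereas the markers of its glycogen cell lineage Tpbpa, Pcdh12 and Prl7b1 were under 1 CPM in every library, and the list summed to 7.38 to 7.97 CPM in siRSL24D1 and 2.63 to 3.17 CPM in siCtrl. Of 6 skeletal muscle markers, Acta1, Ckm and Tnnt3 rose and Mb fell, and Myog, Myh1 and Ckm were under 1 CPM in every library. The sum was 94.1 to 116 CPM in siRSL24D1 and 71.1 to 73.9 CPM in siCtrl. Acta1 made up most of it, at 90.0 to 112 CPM in siRSL24D1 and 67.4 to 70.1 CPM in siCtrl. The 4 astrocyte markers, of which Gfap, Aqp4 and S100b were under 1 CPM in every library, summed to 15.5 to 16.1 CPM in siRSL24D1 and 16.1 to 17.9 CPM in siCtrl. Of 5 extraembryonic endoderm markers, Gata4 and Gata6 rose, Afp was under 1 CPM in every library, and the sum was 9.01 to 9.75 CPM in siRSL24D1 and 6.61 to 8.198 CPM in siCtrl. Of 5 fibroblast markers, Col3a1 rose, Col1a2 and Pdgfrb fell, and the sum was 114 to 137 CPM in siRSL24D1 and 117 to 150.2 CPM in siCtrl. The part of such cells in the change of any member was not tested.

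The genes whose profile over the 6 libraries was nearest to that of Pygl were sought among the 10160 tested genes other than the members whose mean log2 CPM was 3 or more. Each profile was log2 CPM, with 0.5 CPM added first, relative to the gene's own siCtrl mean. Likeness was the root-mean-square distance to Pygl on that scale. Genes were picked by this distance, so fold changes near that of Pygl follow from the choice. Bnip3 was nearest at a distance of 0.099, followed by Aldoc at 0.15, Trim30a at 0.17, Ddx60 at 0.18 and Rtp4 at 0.18. Trim30a was at 10.8 ± 0.57 CPM in siRSL24D1 and 31.3 ± 0.85 CPM in siCtrl (SD, n = 3 each). The other 4 had log2 fold changes from -1.81 for Aldoc to -1.54 for Rtp4.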

How the data were processed

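Total RNA was sequenced after ribosomal RNA depletion with a stranded kit, per the labels' protocols. The authors deposited 1 table of estimated counts per gene symbol, not scaled between libraries; non-whole values made up 21.59% to 22.65% of each column. STAR 2.7.0f, Salmon 0.14.1 and the build GRCm38 are named, per the submitters' processing notes; the sources used here do not give their roles, the annotation or the strand setting.

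Values were rounded, and filterByExpr, at a minimum count of 10 and a minimum total of 15, kept 15084 genes, all 9 members among them. Groups were compared by the quasi-likelihood test of edgeR 4.0.16 in R 4.3.3 with TMM scaling, and p-values were adjusted over all genes tested by the method of Benjamini and Hochberg. Standard errors were taken from the F statistic, as the absolute log2 fold change over its square root. Permutation tests were exact and two-sided. The fitting step was checked on simulated counts with known changes in a small part of the genes and with a common dispersion. Scaling under changes as wide as those of these data was not checked in this way. Positions and exon lengths came from GENCODE M21 (GRCm38), in which 22304 of the 22332 symbols were found. Intervals and SD cover the spread between libraries, and reads without molecular identifiers are not independent molecules.

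The members, the pathway list, the marker lists and the tests were chosen with earlier results of these data known. The naming rule takes Rsl24d1, all members, any gene of the pathway list, all of which were counted, and the 5 genes nearest to Pygl in profile. The single values of 1 gene of the pathway list, which is in the counts, are not reported here. Alternatives were other scalings, filters and tests (DESeq2 1.42.0, limma-voom 3.58.1), length and GC corrections, a replicate block, a threshold of 0.01, other lengths, unrounded values and each library left out.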

Additional observations from a re-analysis of the deposited data

How the results depend on the processing

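The number of members that fell was 6 to 8 under 13 alternatives and 6 or 7 with 1 library left out, and 0 members rose in any of these. The pathway list had 13 to 17 lower genes under the alternatives and 13 to 16 with a library left out. It had 1 higher gene, Gsk3b, with the replicate block, alone or with a length or GC correction, and 0 to 1 with a library left out. Over all genes, 1867 fell and 1886 rose at an adjusted p under 0.01, and with a library left out 2147 to 3285 fell and 2210 to 3356 rose. The Pygl share of phosphorylase transcripts differed by -7.61 percentage points, by -11.8 with the longest transcript as length, by -10.2 with no length correction and by -7.84 to -7.34 with a library left out. The log2 ratio of Pygl to Pygb differed by -1.40 to -1.28 with a library left out. Signs turned for 4 genes that were not called: Ppp1ca under upper-quartile scaling (-0.010) and without siCtrl replicate 3 or siRSL24D1 replicate 2 (-0.029 to 0.048 over the left-out libraries); Pgm2l1 with the length correction (-0.026, or -0.028 with the block); Gsk3a without siCtrl replicate 1 (-0.095 to 0.0077); and Nhlrc1 without siCtrl replicate 3 or siRSL24D1 replicate 2 (-0.20 to 0.15). The cause was not tested.

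Whether the replicate numbers pair the libraries is not settled by these data. Deviations of same-numbered libraries correlated at -0.29, 0.24 and 0.32 across genes. The best match of siRSL24D1 replicate 2 was siCtrl replicate 1 (0.47), and that of siRSL24D1 replicate 1 was siCtrl replicate 3 (0.32). For siRSL24D1 replicate 3 it was the same-numbered siCtrl library (0.32). Deviations were taken from each group's mean and so are tied to each other, which limits what these correlations can show. With the replicate block 7 members and 16 genes of the pathway list fell. Calls were kept in 1 of 6 left-out fits for Pygm (114 counts in siRSL24D1, 178 in siCtrl), in 2 for Ppp1r3g (59 and 118 counts) and in 1 for Ppp1cb (28112 and 30434 counts).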
